A study of Mus musculus with 6 samples.

Results

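The genes described here are the calcium channels and pumps of the endoplasmic reticulum (ER) membrane and the sensor of its calcium store. They are the ryanodine receptors Ryr1, Ryr2 and Ryr3, the inositol trisphosphate (IP3) receptors Itpr1, Itpr2 and Itpr3, the SERCA pumps Atp2a1, Atp2a2 and Atp2a3, and Stim1. These 10 genes were picked by symbol from the 55536 genes counted in each library. Ryr1 was taken because it was the 1 gene that was higher in KOStra8 testes past cutoffs of 0.01 for the adjusted p and of 2-fold in the edgeR fit used here, and the others because they belong with it, so the change of Ryr1 is described below without a test. The study called more genes higher at the same cutoffs. The question here was whether the rise of Ryr1 was shared by the genes that handle the same calcium store.

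RNA of whole testes was sequenced from 3 KOStra8 and 3 HETStra8 male mice at 7 weeks of age, with 1 library per mouse. KOStra8 mice (Sel1Lflox/∆;Stra8-Cre) have a floxed and a deleted allele of Sel1L, which encodes the adaptor protein of an ER-associated degradation complex, and a Cre recombinase under the Stra8 promoter, which is active in male germ cells. HETStra8 littermates are recorded as Sel1Lflox/∆, without Cre, while the study pools such mice with Sel1Lflox/+;Stra8-Cre mice under this name, and no genotype is given for each mouse. Since the Cre acts in germ cells and whole testis also holds Sertoli, Leydig, peritubular and other somatic cells, the libraries mix targeted and untargeted cells. In such bulk RNA, fewer cells of a type and less RNA per cell cannot be told apart.

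The ER is the main calcium store of most cells. SERCA pumps use ATP to move calcium from the cytosol into the ER lumen, and ryanodine and IP3 receptors are the large channels that let it out again, the former best known from the contraction of skeletal muscle and heart and the latter from signalling by hormones and growth factors. STIM1 senses the calcium level of the lumen and opens ORAI channels of the plasma membrane when the store runs low. In testis, calcium release and refilling are studied in germ cells and sperm, where they serve the acrosome reaction, and in hormone-responsive somatic cells.

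The promoter of Ryr1 is shown because the text turns on its transcript, that of Ryr2 because it belongs to the same receptor family, and that of Atp2a1 because it is the pump that works beside RYR1 in fast skeletal muscle. Each runs from 250 bases before to 50 bases after the annotated start, 5′ to 3′ on the gene's strand, in RefSeq's sequence of GRCm38.p6. Ryr1 is at chr7:29125102-29125401, Ryr2 at chr13:12106896-12107195 and Atp2a1 at chr7:126463024-126463323, all on the minus strand. Capitals mark the E-box CANNTG, a site bound by helix-loop-helix factors such as those of muscle, and the CCAAT box, on either strand.
Ryr1: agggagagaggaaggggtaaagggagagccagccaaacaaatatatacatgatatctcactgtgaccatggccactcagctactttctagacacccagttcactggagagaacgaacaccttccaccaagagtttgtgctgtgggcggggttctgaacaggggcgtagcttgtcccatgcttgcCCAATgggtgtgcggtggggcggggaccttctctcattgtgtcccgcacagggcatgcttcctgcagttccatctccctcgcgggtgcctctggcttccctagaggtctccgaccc
Ryr2: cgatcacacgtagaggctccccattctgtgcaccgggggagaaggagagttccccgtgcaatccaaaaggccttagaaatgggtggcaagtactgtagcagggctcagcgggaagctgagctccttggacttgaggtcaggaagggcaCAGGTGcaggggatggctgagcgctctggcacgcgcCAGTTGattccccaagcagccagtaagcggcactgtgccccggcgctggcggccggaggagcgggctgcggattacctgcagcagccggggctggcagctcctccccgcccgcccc
Atp2a1: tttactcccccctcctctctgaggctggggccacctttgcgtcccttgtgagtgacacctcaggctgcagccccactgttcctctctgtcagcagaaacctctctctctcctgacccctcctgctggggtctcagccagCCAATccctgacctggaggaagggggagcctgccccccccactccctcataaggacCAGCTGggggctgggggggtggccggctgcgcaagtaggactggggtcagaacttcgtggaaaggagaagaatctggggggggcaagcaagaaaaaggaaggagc

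The Ryr1 window held 1 CCAAT box and no E-box, the Ryr2 window held 2 E-boxes and no CCAAT box, and the Atp2a1 window held 1 of each. Promoters of 7 of the 10 genes were matched, without Ryr3, Itpr1 and Atp2a2. An E-box lay in 5 of these 7 windows and in 72.3% of all 32851 promoters of this length, and a CCAAT box lay in 3 of 7 and in 37.4% of all. The ER stress response element, CCAAT and CCACG with 9 bases between them, lay in 0 of the 7 and in 0.119% of all, so these letters were absent from the windows of Ryr1 and the others. TGACG, found only in the Stim1 window among the 7, occurred in 20.8% of all promoters, and TATAAA, found in 0 of the 7, in 13.6%. All were searched on both strands, and matches to different motifs could overlap, since the ER stress response element contains a CCAAT box.

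The libraries held between 28875108 and 36526695 counts. Sel1l, the targeted gene, averaged 46.4 ± 3.59 CPM (SD, n = 3) in HETStra8 and fell to 22.2 ± 1.97 CPM (SD, n = 3) with the knockout, a log2 fold change of −1.07 (adjusted p = 0.00061, edgeR's quasi-likelihood test with Benjamini-Hochberg adjustment). CPM are counts scaled to a common library size with TMM factors, and fold changes are KOStra8 over HETStra8. Each library is labelled as a separate mouse. The p-values set the difference between the groups against the spread between mice within them, which edgeR estimates with the help of all tested genes. Of 12 skeletal muscle markers, Actn3, Myh1, Ckm, Mylpf and Tnnc2 passed the filter on low counts and Acta1, Myh2, Myh4, Tnni2, Tnnt3, Mb and Pvalb did not. Germ cell and Sertoli markers ranged in their HETStra8 means from 0.234 CPM for Nanos3 to 4132 CPM for Prm2.

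Ryr1, the ryanodine receptor of skeletal muscle, was higher in every KOStra8 testis than in every HETStra8 testis. HETStra8 mice 1 to 3 gave 274, 229 and 208 counts, and KOStra8 mice 1 to 3 gave 1134, 637 and 949. Scaled to library size this was 8.72, 6.81 and 6.24 CPM against 32.5, 22.0 and 26.0 CPM. The lowest KOStra8 level was 2.52 times the highest HETStra8 level. The means were 7.25 ± 1.30 CPM (SD, n = 3) and 26.8 ± 5.28 CPM (SD, n = 3), 3.70-fold apart, and the fitted log2 fold change was 1.89 (SE 0.166, 95% interval 1.53 to 2.25). This interval comes from the fit by which Ryr1 was chosen, is not adjusted for that choice and serves as a description. Within each group the mice spread by similar shares of their mean, with a coefficient of variation of 17.9% in HETStra8 and 19.7% in KOStra8. By log2 fold change Ryr1 stood at place 24 of 21465 tested genes, and 1 gene with a mean of at least 1 CPM had a larger one. The gene (ENSMUSG00000030592) lies on chromosome 7 of GRCm38 from 29003344 to 29125179, minus strand, and its exons together span 21838 bases.

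**Figure D1:**
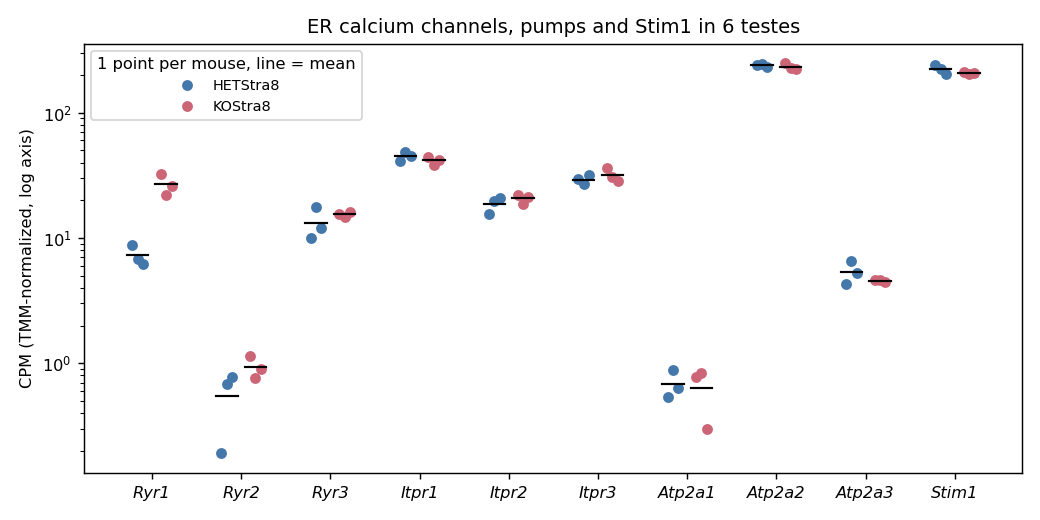
Levels of the 10 genes in each testis, in CPM on a log axis, with HETStra8 and KOStra8 mice as separate points and a line at each group mean. Ryr1 is the gene whose groups are apart, at 6.24 to 8.72 CPM in HETStra8 and 22.0 to 32.5 CPM in KOStra8, and the groups overlap for the other 9.

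None of the other 9 genes passed the test. At an adjusted p below 0.01 and over 2-fold, Ryr1 was the 1 of 10 genes that was higher, against 0.00466% of all tested genes. It was chosen by this very measure, so nothing is read from the count. Of the other 9 genes, 0 passed these cutoffs in edgeR, in DESeq2 or in limma-voom, and 0 had an unadjusted p below 0.05 in any of these tests. DESeq2 gave no adjusted p for Ryr2, Atp2a1 and Atp2a3, so these could not pass there. The adjusted p-values of the 9 lay between 0.557 and 0.939 in edgeR's quasi-likelihood test. At an unadjusted p below 0.05, 7.13% of all tested genes were higher and 5.12% were lower. The HETStra8 and KOStra8 mice overlapped in all 9, while 9.33% of tested genes were higher and 8.43% lower in KOStra8 without overlap. The log2 fold changes of the 9 had a median of −0.04, beside −0.0094 for all tested genes, with 4 above and 5 below 0. The 95% interval ended below a log2 fold change of 1 for 8 of the 9, which leaves Ryr2 as the exception.

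**Figure D2:**
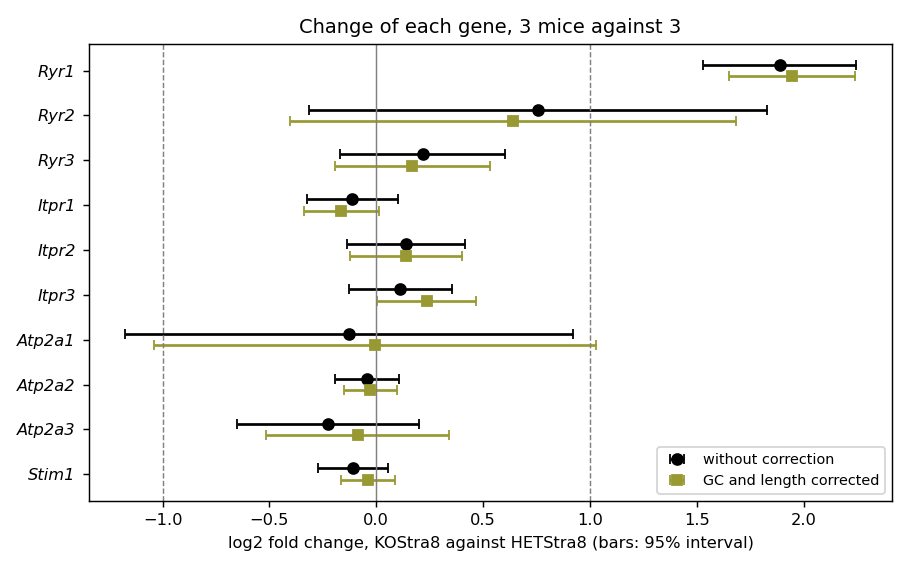
Log2 fold change of each of the 10 genes, KOStra8 over HETStra8, with bars for its 95% interval from edgeR without correction (black circles) and with GC and length offsets (olive squares), and dashed lines at a change of 2-fold. Ryr1 sits at 1.89 and 1.95, with intervals that are not adjusted for how it was chosen. The intervals of the other 9 genes include 0 without correction, while with the offsets that of Itpr3, at 0.24, does not.

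Ryr2 encodes the ryanodine receptor of the heart, and it was scarce in testis. HETStra8 mice 1 to 3 gave 6, 23 and 26 counts, and KOStra8 mice 1 to 3 gave 40, 22 and 33. HETStra8 mouse 1 was far below the rest, and the KOStra8 and HETStra8 values otherwise overlapped. The log2 fold change was 0.76 (95% interval −0.32 to 1.83, adjusted p = 0.557 in edgeR's quasi-likelihood test). At this depth a rise of more than 2-fold in Ryr2 was thus neither shown nor excluded. The interval's upper end was 3.55-fold, while a 2-fold fall lay outside it. The gene lies on chromosome 13 from 11553102 to 12106945.

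Ryr3, the ryanodine receptor found at low levels in many tissues, was the most abundant of the 3 in HETStra8 testes. Its level was 10.1, 17.7 and 12.1 CPM in HETStra8 mice 1 to 3 and 15.6, 14.6 and 16.2 CPM in KOStra8 mice 1 to 3. HETStra8 mouse 2 stood above all KOStra8 mice and the other HETStra8 mice stood below them. The log2 fold change was 0.22 (SE 0.178, 95% interval −0.17 to 0.60, adjusted p = 0.653 in edgeR's quasi-likelihood test). Without HETStra8 mouse 2 it was 0.48, with an unadjusted p of 0.00698 and an adjusted p of 0.480 by edgeR. With any other mouse left out it lay between 0.05 and 0.26. Ryr3 lies on chromosome 2 from 112631355 to 113217096, where its span overlaps the end of Aven on the opposite strand.

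Per length, the makeup of the ryanodine receptor transcripts differed between the groups. The summed level of the 3 genes was 2.79, 3.89 and 2.89 TPM (counts per exon base, scaled to the same sum in each library) in HETStra8 mice 1 to 3 and 7.39, 5.47 and 6.42 TPM in KOStra8 mice 1 to 3. Ryr1 made up 42.7%, 24.6% and 30.1% of that sum in HETStra8 mice and 63.3%, 55.9% and 57.4% in KOStra8 mice. The share of Ryr3 went from 65.7% to 39.6% of the sum on average, and that of Ryr2 was 1.81% and 1.56%. The ratio of Ryr1 to Ryr3 in TPM was 0.753, 0.334 and 0.450 in HETStra8 mice and 1.81, 1.31 and 1.40 in KOStra8 mice, while the level of Ryr3 overlapped between the groups. These shares contain the gene chosen for its rise and are a description.

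**Figure D3:**
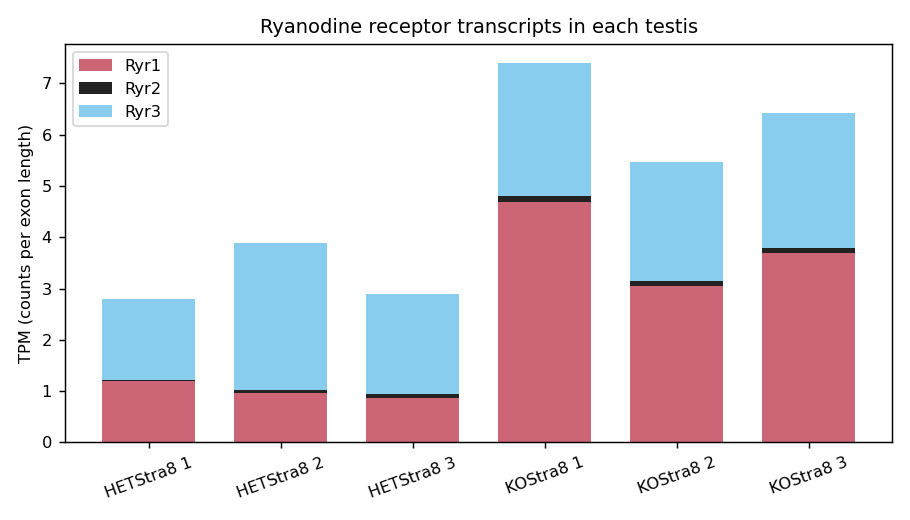
Level per length of Ryr1, Ryr2 and Ryr3 in each testis, in TPM, stacked so that the bar's height is their sum. The sum is 2.79 to 3.89 TPM in HETStra8 mice and 5.47 to 7.39 TPM in KOStra8 mice, with Ryr1 at 24.6% to 42.7% and 55.9% to 63.3% of it.

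The IP3 receptors, which open on binding IP3 made by phospholipase C, were all expressed and showed no difference beyond the spread between mice. Itpr1, the form first known from cerebellar neurons, was at 40.8, 48.8 and 45.3 CPM in HETStra8 and 44.5, 38.1 and 42.2 CPM in KOStra8 mice. Its log2 fold change was −0.11 (SE 0.0989, 95% interval −0.32 to 0.10, adjusted p = 0.680, edgeR's quasi-likelihood test). Itpr2, the form most sensitive to IP3, was at 15.6, 19.8 and 20.9 CPM against 22.0, 18.5 and 21.4 CPM, and Itpr3, common in epithelia, at 29.4, 26.7 and 31.6 CPM against 36.0, 30.5 and 28.3 CPM. In both the ranges crossed. Their log2 fold changes were 0.14 (95% interval −0.14 to 0.42, adjusted p = 0.695) and 0.11 (95% interval −0.13 to 0.35, adjusted p = 0.718) in edgeR's test, so that a change as large as 2-fold lay outside every IP3 receptor's interval.

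Summed per length, the IP3 receptors came to 21.1 ± 1.49 TPM (SD, n = 3) in HETStra8 and 22.2 ± 2.40 TPM (SD, n = 3) in KOStra8 testes. Itpr3 supplied 46.6% and 48.8% of it, Itpr1 35.3% and 31.7%, and Itpr2 18.2% and 19.5%. Which form led depended on the length used: with the mean transcript length Itpr1 supplied 64.7% and 60.9% and Itpr3 17.5% and 19.2% of sums of 32.9 and 33.0 TPM, and with the longest transcript Itpr1 supplied 48.4% and 44.4% and Itpr3 34.6% and 36.97%. Itpr1 lies on chromosome 6 from 108213096 to 108551109, Itpr2 on chromosome 6 from 146108299 to 146502223, and Itpr3 on chromosome 17 from 27057304 to 27122223.

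Of the SERCA pumps, Atp2a2, the form of heart and most other tissues, supplied nearly all of the transcript. It was at 242, 245 and 231 CPM in HETStra8 and 247, 227 and 224 CPM in KOStra8 mice, and the groups overlapped. The log2 fold change was −0.04 (SE 0.0706, 95% interval −0.20 to 0.11, adjusted p = 0.837, edgeR's quasi-likelihood test), the narrowest interval of the 10 genes. Atp2a2 made up 97.0% of the summed SERCA level per length in HETStra8 and 97.3% in KOStra8 testes, and that sum was 123 ± 4.59 TPM (SD, n = 3) and 122 ± 8.52 TPM (SD, n = 3). Atp2a3, a pump of blood cells, endothelium and epithelia, was at 4.26, 6.57 and 5.22 CPM against 4.64, 4.59 and 4.49 CPM, with a log2 fold change of −0.23 (95% interval −0.65 to 0.20, adjusted p = 0.676, edgeR's test).

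Atp2a1, the SERCA pump of fast skeletal muscle, was scarce and overlapped between the groups. HETStra8 mice gave 17, 30 and 21 counts and KOStra8 mice gave 27, 24 and 11, with KOStra8 mouse 3 lowest of all 6. The log2 fold change was −0.13 (95% interval −1.18 to 0.92, adjusted p = 0.939, edgeR's quasi-likelihood test), a wide interval on low counts, and its sign turned with 1 mouse left out, to 0.10 without HETStra8 mouse 2 and to 0.22 without KOStra8 mouse 3. Other muscle genes were low too: skeletal muscle markers summed to 21.2 to 23.2 CPM in HETStra8 and 17.0 to 21.5 CPM in KOStra8 mice, most of it from Actn3, which encodes a Z-disc actinin and had a log2 value of −0.26 for the change (adjusted p = 0.478, edgeR's test). Myh1, a fast myosin, had −0.22 and Ckm, muscle creatine kinase, −0.43, while Mylpf, a fast myosin light chain, had 0.36 and Tnnc2, fast troponin C, 0.50. Of the 12 muscle markers, 5 were tested and 0 had an unadjusted p below 0.05 in edgeR's test. Atp2a1, Atp2a2 and Atp2a3 lie on chromosome 7 from 126445858 to 126463108, on chromosome 5 from 122453513 to 122502225, and on chromosome 11 from 72961169 to 72993044.

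Stim1, the calcium sensor of the ER lumen, was abundant. It was at 242, 223 and 204 CPM in HETStra8 and at 210, 203 and 207 CPM in KOStra8 mice. HETStra8 mice 1 and 2 were above every KOStra8 mouse, and HETStra8 mouse 3 lay among them. The log2 fold change was −0.11 (SE 0.0759, 95% interval −0.27 to 0.05, adjusted p = 0.578, edgeR's quasi-likelihood test). Without HETStra8 mouse 3 it was −0.16, with an unadjusted p of 0.0365 and an adjusted p of 0.218 by edgeR. With any other mouse left out it lay between −0.11 and −0.05. Stim1 lies on chromosome 7 from 102267806 to 102437319, and the ratio of Ryr1 to Stim1 per length was 0.0171, 0.0145 and 0.0145 in HETStra8 against 0.0735, 0.0515 and 0.0596 in KOStra8 mice.

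Ordered by level per length in HETStra8 testes, Atp2a2 was highest at 119 ± 3.95 TPM (SD, n = 3), before Stim1 at 65.1 ± 4.88 TPM and, well below, Itpr3 at 9.82 ± 0.799 TPM, Itpr1 at 7.44 ± 0.757 TPM and Itpr2 at 3.85 ± 0.619 TPM. Atp2a3 followed at 3.08 ± 0.702 TPM and Ryr3 at 2.12 ± 0.660 TPM, and Ryr1, at 1.01 ± 0.167 TPM, held place 8. Atp2a1 at 0.600 ± 0.166 TPM and Ryr2 at 0.0583 ± 0.0337 TPM came last. Itpr2 and Atp2a3, and Atp2a3 and Ryr3, overlapped between mice, and the other neighbours did not. In KOStra8 testes Ryr1, at 3.81 ± 0.820 TPM, held place 6, where it overlapped Itpr2 at 4.32 ± 0.463 TPM and lay above Atp2a3 at 2.68 ± 0.0749 TPM and Ryr3 at 2.52 ± 0.161 TPM, which overlapped each other. With the longest or the mean transcript length in place of the exon union, Ryr1 kept places 8 and 6, and Itpr1 came before Itpr3. With the mean length Stim1, at 139 TPM in HETStra8, also came before Atp2a2, at 99.6 TPM.

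Fold changes also followed the GC content of the genes, and what lies behind this trend was not tested. The Spearman rho between GC content and log2 fold change was −0.47 over 21457 tested genes, which are not independent replicates. The median log2 fold change was 0.38 in genes around 38.5% GC and −0.14 in genes around 56.7% GC. Ryr1, at 57.3% GC, lay at the 89.5th percentile of tested genes, where other genes tended to be lower in KOStra8, and with offsets for GC content and length its log2 fold change was 1.95 in place of 1.89. With those offsets Itpr3, at 57.5% GC, had 0.24 in place of 0.11, with an unadjusted p of 0.0466 (adjusted p = 0.709 by edgeR). Ryr2 had 0.64, Ryr3 0.17, Itpr1 −0.16, Atp2a3 −0.09 and Stim1 −0.04.

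**Figure D4:**
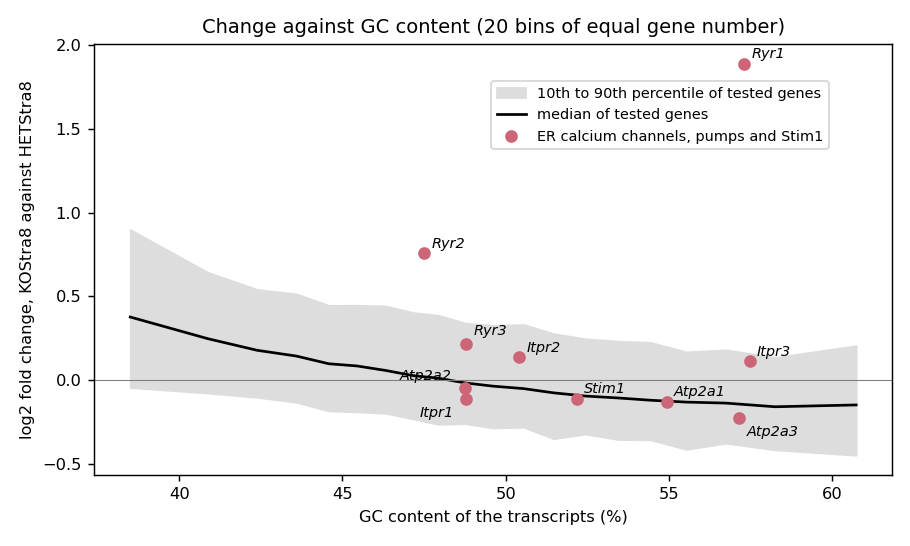
Median log2 fold change of tested genes in bins of GC content, in percent, with a grey band from the 10th to the 90th percentile and the 10 genes as labelled points. The bin median falls from 0.38 near 38.5% GC to −0.15 near 60.7% GC, and Ryr1 sits far above its bin.

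The nearest tested gene on each side of Ryr1 and the tested overlapping genes did not pass the cutoffs. Of all tested genes, 0.00466% passed them as higher and 0.00466% as lower, so nothing is read from this. Map4k1, which encodes a kinase of blood cells and ends 65 bases from the Ryr1 span on the opposite strand, was at 13.3, 14.7 and 12.5 CPM in HETStra8 and 12.6, 9.12 and 11.3 CPM in KOStra8 mice, a log2 fold change of −0.29 (adjusted p = 0.431, edgeR's quasi-likelihood test). Rasgrp4, 9672 bases away on the other side, had −0.22 (adjusted p = 0.893, edgeR's test) at under 0.54 CPM. Within the Ryr1 span are the antisense genes Gm38979 and Gm26604, with 30 and 20 counts over all 6 libraries, and the microRNA genes Mir1963 and Gm44408, with 0 counts. In all, 22 annotated genes overlapped 9 of the 10 channel and pump genes, 12 of them on the other strand, and the 3 that passed the filter were Aven with Ryr3 (log2 fold change −0.09), Itpr3os with Itpr3 (−0.13) and Rabep2 with Atp2a1 (−0.10). The strand setting of the counting is not given in the sources used here, so reads from the overlaps cannot be told apart.

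By the root mean square difference of mean-centred log2 CPM over the 6 libraries, the pattern nearest to Ryr1 among 17592 genes with a mean of at least 1 CPM was that of Zfp619, at 0.214. Zfp619, a zinc finger gene of chromosome 7 from 39517766 to 39540420, was at 0.700, 0.446 and 0.360 CPM in HETStra8 and 2.26, 1.28 and 2.38 CPM in KOStra8 mice, on 12 to 87 counts. Gm36989, Gm9495, Gm49655 and Pcdha3 followed, at 0.348, 0.359, 0.398 and 0.404. Apart from Gm9495, these genes averaged under 1 CPM in HETStra8 mice and reached the minimum mean through KOStra8 mice, so the minimum favoured genes that are higher there. Of the other channel and pump genes with at least 1 CPM, Ryr3 was nearest at 0.889 and Atp2a3 farthest at 1.09.

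Beyond the 10 genes, a list of 104 genes that act with them in ER calcium handling was grouped by role, of which 96 were tested. At an unadjusted p below 0.05, 4 were higher and 9 lower in KOStra8 testes, beside 7.13% and 5.12% of all tested genes. None passed the cutoffs in edgeR, DESeq2 or limma-voom, while in edgeR 0.00466% of all tested genes passed as higher and 0.00466% as lower. The smallest adjusted p in the list was 0.135 in edgeR's quasi-likelihood test. The median log2 fold change was −0.05, beside −0.0094 for all tested genes. With offsets for GC content and length, 3 were higher and 4 lower at this p, beside 3.75% and 3.17% of all. The counts changed when single mice were left out: 9 were higher without HETStra8 mouse 3 and 2 without HETStra8 mouse 2. Lower genes numbered 3 without HETStra8 mouse 1, KOStra8 mouse 2 or KOStra8 mouse 3 and 5 without KOStra8 mouse 1. The shares of all tested genes in those fits are not given here, so these changes are not read as a trait of the list.

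Partners of the ryanodine receptors, such as the proteins that join the ER to the plasma membrane in muscle, gave no call: of 24 tested, 0 had an unadjusted p below 0.05 in edgeR's test, with a median of 0.03. Calm2, among the most abundant of them, was at 467 ± 36.4 CPM in HETStra8 against 478 ± 8.10 CPM in KOStra8 (SD, n = 3 each). Of 14 partners of the IP3 receptors, 0 were higher and 3 lower at this p, at which 7.13% of all tested genes were higher and 5.12% lower. Itpkb, a kinase that removes IP3 by phosphorylating it, went from 73.4 ± 11.6 CPM to 55.9 ± 2.97 CPM (SD, n = 3 each) without overlap, a log2 fold change of −0.39 (adjusted p = 0.192, edgeR's quasi-likelihood test) and −0.32 with the GC and length offsets. Itprip, an IP3 receptor-binding protein, had −0.35 (adjusted p = 0.312, edgeR's test; −0.19 with the offsets) and Ahcyl2, a relative of an IP3 receptor-binding protein, 0.03.

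Of 13 phospholipase C genes, whose products make IP3, 0 were higher and 2 lower, beside 7.13% and 5.12% of all tested genes, shares that also stand beside the counts of SERCA regulators and store-operated entry. Plcz1, the sperm phospholipase that triggers egg activation, was at 210 ± 46.9 CPM and 252 ± 11.8 CPM (SD, n = 3 each), a log2 fold change of 0.27 (adjusted p = 0.481, edgeR's quasi-likelihood test) that was 0.05 with the GC and length offsets, and Plcd4, which acts in the acrosome reaction, had −0.07. Of the regulators of SERCA, 3 were tested and 0 had an unadjusted p below 0.05. The muscle regulators Sln and Mrln did not pass the filter on low counts, and Tmx1, an ER thioredoxin, had 0.10 while Tmem64 averaged 80.5 CPM in HETStra8 and 80.4 CPM in KOStra8. Of 12 genes of store-operated entry, 0 were higher and 1 lower, and the most abundant, Saraf, which turns that entry off, had −0.11 and Tmco1, an ER calcium leak channel, −0.09.

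Of 13 calcium-binding proteins of the ER lumen, 2 were higher and 1 was lower at an unadjusted p below 0.05, beside 7.13% and 5.12% of all tested genes, and none passed after adjustment. Hsp90b1, which encodes the chaperone GRP94, was at 474, 479 and 530 CPM in HETStra8 and 603, 620 and 575 CPM in KOStra8 mice, without overlap. Its log2 fold change was 0.28 (adjusted p = 0.150, edgeR's quasi-likelihood test), and 0.13 with the GC and length offsets. Hspa5, which encodes the chaperone BiP, was at 536, 544 and 552 CPM against 591, 617 and 598 CPM, also without overlap, a log2 fold change of 0.15 (adjusted p = 0.367, edgeR's quasi-likelihood test) and 0.12 with the offsets. The gene that was lower was Nucb1, at −0.28 (adjusted p = 0.308, edgeR's quasi-likelihood test), also without overlap, and at −0.17 with the offsets. Calr, the lumen's main buffer, had −0.06 and Clgn, which encodes the ER chaperone calmegin, 0.14, both with overlapping groups.

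The pumps and exchangers of plasma membrane and Golgi, which remove calcium from the cytosol, gave 1 higher and 1 lower of 9 tested, beside 7.13% and 5.12% of all tested genes, with −0.09 for Atp2b4, a plasma membrane pump needed for sperm motility, and −0.22 for Slc8a2, a sodium-calcium exchanger, which had −0.06 with the GC and length offsets. Of 8 genes of the mitochondrial uniporter, 1 was higher and 1 lower, read against the same shares. Micu3, a gatekeeper of the uniporter, was at 11.8, 9.03 and 12.4 CPM against 18.6, 16.4 and 15.7 CPM, without overlap, a log2 fold change of 0.61 (adjusted p = 0.135, edgeR's quasi-likelihood test) and 0.32 with the offsets. The pore Mcu had −0.05 and Letm1, an inner-membrane protein, −0.11.

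**Figure D5:**
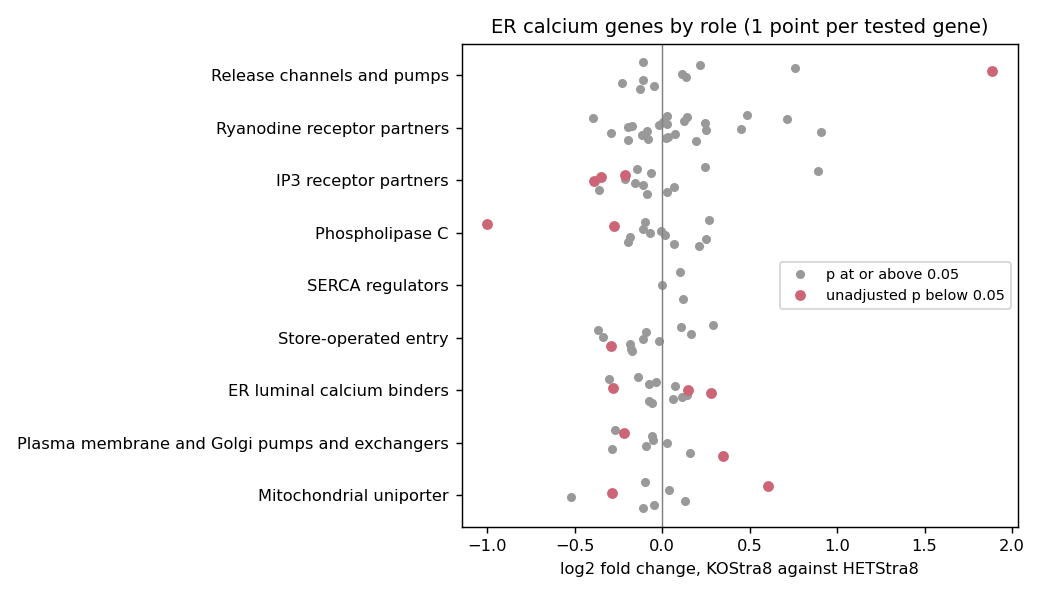
Log2 fold change of each tested gene of the wider calcium list, and of the 10 channel, pump and sensor genes, grouped by role, with genes at an unadjusted p below 0.05 in red. Ryr1 stands apart at 1.89, and the highest of the other genes is at 0.91.

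Markers of somatic cells were in part lower in the same libraries. At an unadjusted p below 0.05, none of 77 tested markers was higher and 11 were lower, and 5 of those 11 were among 10 Sertoli genes, beside 7.13% of all tested genes higher and 5.12% lower. The Sertoli genes summed to 1046 to 1253 CPM in HETStra8 and 868 to 992 CPM in KOStra8 mice. Most of this sum came from Clu, at 775 ± 95.2 CPM in HETStra8 and 639 ± 56.6 CPM in KOStra8 (SD, n = 3 each). The log2 fold changes of the 10 Sertoli genes ran from −0.43 to −0.01, with a median of −0.28, and of −0.15 with the GC and length offsets. Clu, Amhr2 and Dhh, secreted or receptor proteins of Sertoli cells, had log2 fold changes of −0.28, −0.29 and −0.43 (smallest adjusted p = 0.166 in edgeR's quasi-likelihood test), and −0.15, −0.14 and −0.31 with the GC and length offsets. Leydig, peritubular and macrophage lists had 1, 2 and 2 lower, spermatids 1, and spermatogonia, spermatocytes and endothelium 0. Spermatocyte markers summed to 4322 to 4399 CPM and 4447 to 4636 CPM, spermatid markers to 13781 to 13881 CPM and 12479 to 14066 CPM, spermatogonial markers to 132 to 144 CPM and 133 to 140 CPM in HETStra8 and KOStra8 mice. Leydig markers summed to 553 to 835 CPM and 464 to 599 CPM, peritubular markers to 400.4 to 492 CPM and 387 to 429 CPM, macrophage markers to 78.0 to 91.3 CPM and 67.9 to 93.6 CPM, and endothelial markers to 50.1 to 69.2 CPM and 44.8 to 63.1 CPM. The marker counts also changed when single mice were left out. Without HETStra8 mouse 3, 6 were higher and 14 lower, and without HETStra8 mouse 1, 1 was higher and 7 lower. Lower markers numbered 7, 6 and 3 without KOStra8 mouse 1, HETStra8 mouse 2 and KOStra8 mouse 3. The shares of all tested genes in those fits are not given here, so these changes are not read as a trait of the markers. With the GC and length offsets 5 were lower and 1 was higher, beside 3.17% and 3.75% of all tested genes. The part of these shifts in the values of the channels and pumps was not tested.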

How the data were processed

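Whole-testis RNA was compared between 3 KOStra8 mice and 3 HETStra8 mice, all 7 weeks old. The authors deposited raw counts of reads for 55536 Ensembl genes in each library. The submitters' processing notes name STAR 2.7.1a, Picard 2.20.4, StringTie 2.0.4, featureCounts 1.6.0, FastQC, Trimmomatic and HTSeq, without roles, and the builds mm10 and GRCm38. The strand setting is not given in the sources used here. Symbols, positions, exon lengths and GC content came from GENCODE mouse release 21.

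Counts were fitted in R 4.3.3 with edgeR 4.0.16 (filterByExpr, which kept 21465 genes, TMM factors between 0.990 and 1.01, robust quasi-likelihood estimation by genotype alone, two-sided tests with Benjamini-Hochberg adjustment over all tested genes). As in the study, calls needed a fold of 2 at an adjusted p below 0.01. CPM are TMM-scaled, log2 CPM used a prior count of 2, and TPM used the exon union length. For 3 against 3 mice the smallest exact permutation p is 0.1. The steps were tested on simulated data.

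Alternatives were DESeq2 1.42.0, limma-voom (limma 3.58.1), DESeq2's size factors, library totals, other filters on low counts, offsets for GC content and length (loess span 0.3), the replicate number as a block and leaving out each mouse. Mice with the same number were not related in their deviations from the group means.

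The 10 genes and all lists were chosen with earlier results of these data known. Named genes are these 10, Sel1l, the 2 most abundant genes of each role group or marker list and those with an unadjusted p below 0.01 (for markers, the text gives those of muscle and Sertoli cells), the 5 genes most like Ryr1, its neighbours, and overlapping genes (given for Ryr1, and otherwise where tested). Hspa5, Nucb1, Sln, Mrln and the muscle markers other than Actn3 and Myh1 were named after their values were seen. Strit1 matched no symbol and was not analysed here. Values of 1 further gene named by these criteria are not reported here.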

Additional observations from a re-analysis of the deposited data

How the results depend on the processing

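Over the alternatives run, the log2 fold change of Ryr1, for which the gene was chosen, lay between 1.73 and 2.04, as a description. The other 9 channel and pump genes passed the cutoffs under none of the alternatives that could call them. DESeq2 gave no adjusted p for Ryr2, Atp2a1 and Atp2a3, and Ryr2 was not tested under the stricter filter on low counts. The sign of Atp2a1 turned without HETStra8 mouse 2 (0.10) and without KOStra8 mouse 3 (0.22), over a range of −0.35 to 0.22 with each mouse left out, on at most 30 counts per library. At an unadjusted p below 0.05, the channel and pump genes that were higher numbered 2 with GC and length offsets, where Itpr3 joined Ryr1, and 1 to 2 with each mouse left out, and those that were lower numbered 0 to 1. The wider calcium genes that were higher numbered 4, but 1 with the offsets and a replicate block and 2 to 9 with each mouse left out (9 without HETStra8 mouse 3). Those that were lower numbered 9, but 4 with the offsets, 4 with the offsets and a replicate block, and 3 to 12 with each mouse left out. Markers that were higher numbered 0, but 1 in DESeq2, with the offsets, with the offsets and the block, with library totals and with the replicate block alone, 2 in limma-voom, and 0 to 6 with each mouse left out (6 without HETStra8 mouse 3). Markers that were lower numbered 11, but 5 with the offsets and 3 to 14 with each mouse left out. Shares of all tested genes at this p are given above only for edgeR's fit by genotype alone and for that with the offsets. Under the other settings the counts are thus not read as results about the channel and pump genes or the lists. The cause of the differences between settings was not tested.

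With the replicate number as a block the log2 fold change of Ryr1 was 1.88. Same-numbered mice correlated at −0.06, −0.05 and 0.11 in their deviations from the group means, and mice of other numbers at up to 0.15, so the numbers were not taken as pairs.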
